A study of Mus musculus with 8 samples.

Results

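The 10 genes described here encode transcription factors that steer myeloid progenitors toward granulocytes, monocytes, macrophages or dendritic cells: Irf8, Klf4, Egr1, Maf, Gfi1, Cebpa, Cebpb, Cebpd, Spi1 and Runx1. They were chosen by name as granulocyte and monocyte fate factors, with earlier results of these data known. Probe sets that the platform annotation assigned to exactly 1 of these symbols were taken, which gave 24 of 34945 probe sets with 1 symbol, and the main row of a gene was the member probe set of highest mean log2 intensity, which gave 10 of 18193 genes. The remaining 14 probe sets are described beside the genes they belong to.

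RNA came from cultured mouse leukemic cells driven by MLL-AF9, an oncogenic fusion protein that recruits the histone methyltransferase DOT1L to its target genes, and was measured on 8 Affymetrix arrays. All cells carried MLL-AF9 and grew with 15% serum, SCF (20 ng/ml), IL-3 (10 ng/ml) and IL-6 (10 ng/ml). The 4 groups of 2 arrays were shLUC cells (hairpin to luciferase, a control) in DMSO, shLUC cells after 6 days in 3 µM EPZ4777, shSirt1 cells (hairpin to the deacetylase gene Sirt1) in DMSO, and shSirt1 cells after 21 days in 3 µM EPZ4777. EPZ4777 is a small-molecule inhibitor of DOT1L. Hairpin and time in drug cannot be told apart between the EPZ4777 groups, and the DMSO arrays carry no time. Titles join 1 DMSO and 1 EPZ4777 array under a code, A4 and D11 for shLUC and A1 and A5 for shSirt1, whose meaning the labels do not give. Whether both arrays of a group stem from independent cultures is not stated, so the p-values describe the spread between these arrays, which may be technical.

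Myeloid fate is set by a small network of such factors. PU.1, the product of Spi1, opens myeloid enhancers together with RUNX1 and C/EBPα, and its partners then decide the branch. IRF8 binds with PU.1 and drives monocytes and dendritic cells, where KLF4, EGR1 and MAF act further toward monocytes and macrophages, while GFI1 represses monocyte genes and, with the C/EBP family, permits neutrophil maturation. MLL-AF9 arrests cells at the granulocyte-monocyte progenitor stage, and mouse MLL-AF9 cells keep parts of this network active.

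Array medians lay between 5.21 and 5.27 log2 units. Sirt1 stood at 56.6% (DMSO) and 57.8% (EPZ4777) of the shLUC mean on the A1 arrays but at 102% and 106% on the A5 arrays, so the cells are called labelled shSirt1 and every difference between hairpins is a difference between labels. Myeloid and progenitor transcripts were abundant on every array: Mpo (myeloperoxidase) lay between 12.75 and 13.56 log2 units, Ptprc (CD45) between 11.54 and 12.63, and Kit, the SCF receptor, between 8.58 and 9.71. The lymphoid genes Cd79a and Cd3e (4.13 to 4.94 and 5.03 to 5.28) and the erythroid gene Slc4a1 (3.54 to 4.02) lay low. None of 8 erythroid, 9 mast cell and basophil, 11 lymphoid and 10 stromal markers passed the test in either comparison of EPZ4777 with DMSO. With the code as a block, described below, 1 lymphoid marker was higher in each arm, against 3.63% (shLUC) and 1.31% (labelled shSirt1) of all genes. The summed linear intensity of the mast cell and basophil markers was nevertheless higher with drug. For shLUC it was 934 to 1004 in DMSO and 1170 to 1424 in EPZ4777. For labelled shSirt1 it was 993 to 1093 and 1724 to 1934. These markers include Kit, named above as abundant on every array, so their sum does not read mast cells and basophils alone. Their median log2 difference was 0.25 in shLUC and 0.097 in labelled shSirt1. The lymphoid sum was 246 to 272 and 328 to 344 in shLUC and 217 to 268 and 328 to 447 in labelled shSirt1. The stromal sum was lower with drug in labelled shSirt1, at 858 to 1112 in DMSO and 396 to 469 in EPZ4777, and overlapped in shLUC (705 to 1362 and 618 to 797). The erythroid sum overlapped in shLUC (195 to 209 and 187 to 222) and was higher with drug in labelled shSirt1 (191 to 196 and 199 to 215). Their part in the results below was not tested.

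The promoters of the factors whose levels differed most clearly between groups are shown first. RefSeq promoter windows (build GRCm38.p6) were held for 6 of the 10 genes, and the 250 bases before the start site are printed for Irf8, which fell in both hairpin arms, and for Gfi1 and Runx1, which rose in shLUC cells. Runx1 has a distal and a proximal promoter, and both are given. Irf8 and Gfi1 each also had another window further downstream, which is not printed. Capitals mark matches, on either strand, to short recognition sequences of the factor families in this network, to a STAT element and to the TATA box.
Irf8, chr8:120736108-120736357, plus strand: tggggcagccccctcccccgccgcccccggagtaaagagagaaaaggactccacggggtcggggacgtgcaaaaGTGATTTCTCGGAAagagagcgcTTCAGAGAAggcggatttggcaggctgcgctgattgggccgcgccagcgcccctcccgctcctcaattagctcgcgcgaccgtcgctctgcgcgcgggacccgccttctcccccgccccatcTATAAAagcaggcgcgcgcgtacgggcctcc
Gfi1, chr5:107725806-107726055, minus strand: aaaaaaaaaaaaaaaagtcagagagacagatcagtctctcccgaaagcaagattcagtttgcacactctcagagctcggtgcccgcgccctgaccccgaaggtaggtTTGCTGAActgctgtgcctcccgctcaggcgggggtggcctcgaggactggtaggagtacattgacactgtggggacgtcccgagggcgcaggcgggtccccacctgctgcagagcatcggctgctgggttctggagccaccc
Runx1 distal, chr16:92826075-92826324, minus strand: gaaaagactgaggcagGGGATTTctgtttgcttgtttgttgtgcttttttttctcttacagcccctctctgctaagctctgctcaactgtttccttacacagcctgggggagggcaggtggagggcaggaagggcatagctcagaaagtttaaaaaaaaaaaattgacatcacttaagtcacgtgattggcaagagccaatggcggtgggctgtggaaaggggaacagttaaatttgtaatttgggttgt
Runx1 proximal, chr16:92697330-92697579, minus strand: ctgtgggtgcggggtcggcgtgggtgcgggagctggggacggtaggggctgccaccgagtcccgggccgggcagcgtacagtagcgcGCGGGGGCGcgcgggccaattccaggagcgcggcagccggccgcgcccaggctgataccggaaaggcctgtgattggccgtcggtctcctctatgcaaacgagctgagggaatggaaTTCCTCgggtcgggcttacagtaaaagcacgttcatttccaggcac

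The printed Irf8 window held the STAT element TTCNNNGAA at 171 and at 153 bases before the start. This sequence was present in 7.02% of 32851 mouse promoter windows of this length. A GFI1 core (AAATCNC, 10.3% of windows) on the minus strand overlapped the upstream STAT element at 176 bases, and a TATA box (TATAAA, 12.4%) lay at 31 bases. In the printed Gfi1 window, a C/EBP sequence (TTGCNNAA, 9.56%) at 143 bases overlapped a MAF core (TGCTGA, 16.1%) at 142 bases. The Irf8 window that is not printed held a MAF core at 157 bases on the minus strand, and that of Gfi1 held no match. The distal Runx1 window held a GFI1 core at 234 bases. The proximal window held an EGR sequence (GCGNGGGCG, 4.70%) at 163 bases and the ETS core GAGGAA, which PU.1 also reads (23.3%), at 46 bases on the minus strand. None of the 4 windows printed matched the IRF repeat GAAANNGAA (7.13%), the RUNX sequence TGTGGT (14%) or the KLF sequence GGGTGTGG (3.20%). These matches are descriptions of letters in a short window and not measured binding.

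After 6 days of EPZ4777 in shLUC cells, the monocyte and dendritic factor Irf8 fell, while Runx1, Gfi1, Cebpd and the macrophage factor Maf rose. Of the 10 factors 4 were higher, where 1.62% of all genes were called higher, and 1 was lower, where 2.36% were called lower; the other 5 did not pass. The median difference of the 10 was 0.66 log2 units and that of all genes -0.0025. As the factors were chosen with earlier results of these data known, these shares and medians are a description and not a test. A gene was called at a limma adjusted p under 0.05 over all 18193 genes. After 21 days in cells labelled shSirt1, Irf8 fell again and was the only factor that passed: 1 of 10 was lower (0.181% of all genes) and 0 were higher (0.214% of all genes), with a median of 0.34. In this comparison 2876 genes had an unadjusted limma p under 0.05. With the code as a block, 5 factors were higher in shLUC (3.63% of all genes) and 1 lower (3.61%), and 1 was higher in labelled shSirt1 (1.31%) and 1 lower (0.907%). The added calls were Cebpa in shLUC and Cebpd in labelled shSirt1. Less RNA of a factor per cell and fewer cells that make it cannot be told apart in these bulk samples.

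**Figure D1:**
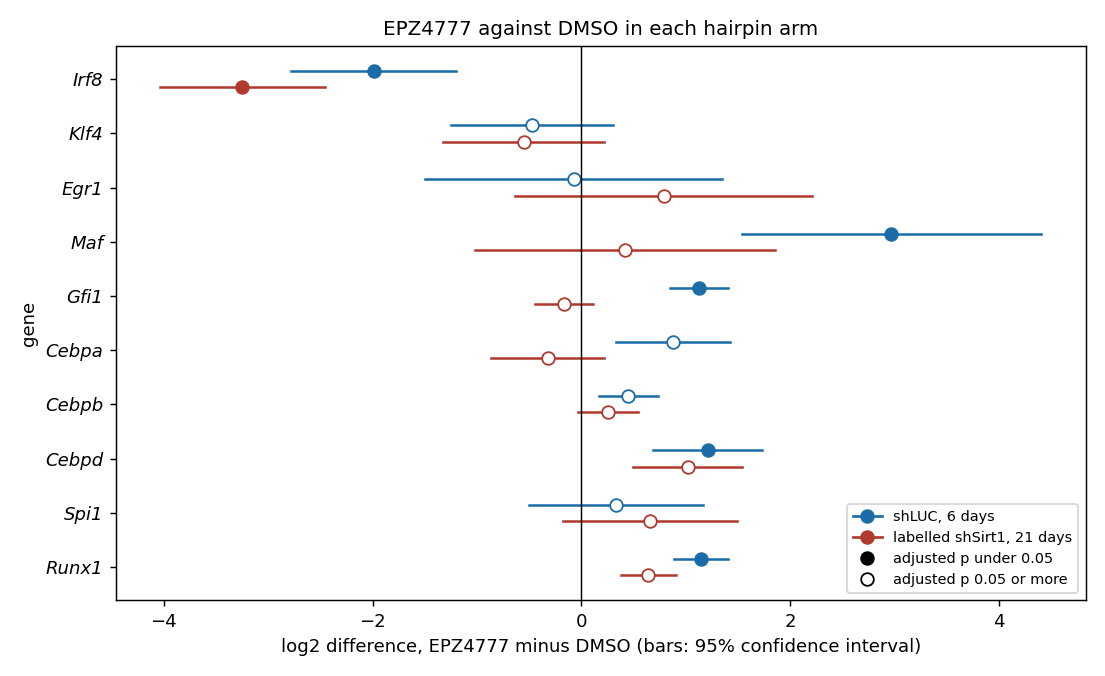
Log2 difference, EPZ4777 minus DMSO (x axis), for each factor (y axis) in shLUC cells after 6 days (blue) and in labelled shSirt1 cells after 21 days (red), with 95% confidence intervals and filled points where the limma adjusted p was under 0.05. Irf8 is the only factor filled in both arms, at -1.99 and -3.25, and Maf (2.97 and 0.42) and Gfi1 (1.13 and -0.16) show wide gaps between the arms.

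With 1 array left out, its group held a lone array, which was assumed to vary like the other groups, and the spread came from those groups alone. All 5 calls in shLUC cells were then lost without the shLUC DMSO A4 array (adjusted p from 0.206 for Runx1 to 0.256 for Maf), without the shLUC DMSO D11 array (0.194 for Gfi1 and Runx1 to 0.211 for Irf8) and without the shLUC EPZ4777 D11 array (0.101 for Runx1 to 0.212 for Maf), although each difference kept its sign. The differences of Gfi1 (1.08 to 1.18) and Runx1 (1.09 to 1.20) moved little over the 8 fits with an array left out, those of Irf8 (-2.26 to -1.71) and Cebpd (0.97 to 1.44) moved more, and that of Maf ranged from 2.24 to 3.70. The number of all genes passing likewise ranged from 0 to 1031 over these fits. Without either labelled shSirt1 DMSO array 3 passed, and without either labelled shSirt1 EPZ4777 array 4 passed.

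Within the codes, 5 of the 10 factors had the same sign of EPZ4777 minus DMSO in all 4 codes, against 38.4% of all genes. These were Irf8 (lower) and Spi1, Cebpb, Cebpd and Runx1 (higher).

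**Figure D2:**
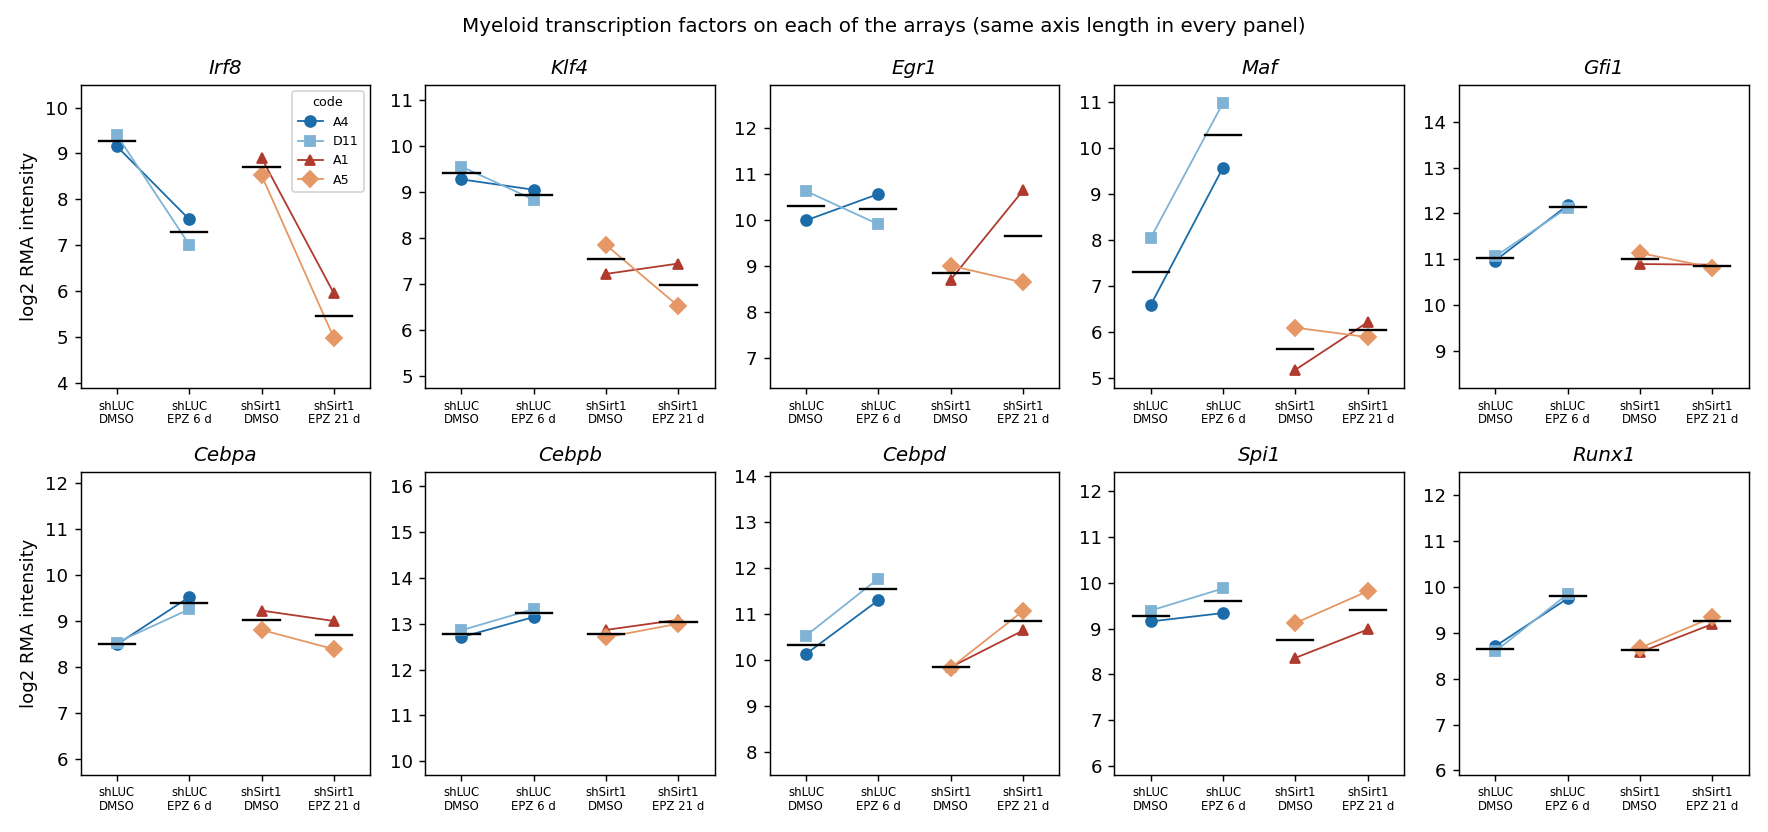
Log2 RMA intensity (y axis, the same length in every panel) of the 10 factors on each of the 8 arrays by group (x axis); lines join the DMSO and EPZ4777 arrays of a code and black bars are group means. Irf8 steps down from 9.28 to 7.29 in shLUC and from 8.72 to 5.47 in labelled shSirt1, whereas Maf spans 5.81 log2 units over the arrays and Cebpb 0.61.

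Irf8 encodes the interferon regulatory factor that directs progenitors to monocytes and dendritic cells and away from neutrophils. Its log2 intensity in shLUC cells was 9.16 (A4) and 9.40 (D11) in DMSO and 7.57 (A4) and 7.02 (D11) in EPZ4777. In cells labelled shSirt1 it was 8.90 (A1) and 8.53 (A5) in DMSO and 5.95 (A1) and 4.98 (A5) in EPZ4777. The DMSO arrays were all higher than the EPZ4777 arrays, and the 4 groups did not overlap. Here and below, overlap is a description of 2 arrays per group, and the share of all genes without overlap was not counted. Group means ran from 9.28 ± 0.17 (SD, n = 2) in shLUC DMSO through 8.72 ± 0.27 in labelled shSirt1 DMSO and 7.29 ± 0.39 in shLUC EPZ4777 to 5.47 ± 0.69 in labelled shSirt1 EPZ4777.

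With EPZ4777, Irf8 fell by 1.99 log2 units in shLUC cells (SE 0.33, 3.97-fold, limma adjusted p = 0.0355). It fell by 3.25 in cells labelled shSirt1 (SE 0.33, 9.49-fold, limma adjusted p = 0.0385). The labelled shSirt1 EPZ4777 values, 5.95 and 4.98, lay near the array medians (5.21 to 5.27). They were not shown to be above background, so 9.49-fold is not an exact fold. The difference was negative in every code, at -1.59 in A4, -2.39 in D11, -2.95 in A1 and -3.54 in A5. The other probe set of the gene, 1448452_at, also fell by 2.13 in shLUC (adjusted p = 0.0338 over all probe sets) and fell by 2.82 in labelled shSirt1 (0.0490). The call in shLUC cells was lost without the shLUC DMSO A4 (-2.11, adjusted p = 0.220), shLUC DMSO D11 (-1.87, 0.211) or shLUC EPZ4777 D11 array (-1.71, 0.177). The call in labelled shSirt1 cells was lost without either shLUC DMSO array (0.115 for each, at the same -3.25), labelled shSirt1 DMSO A1 (-3.06, 0.0989) or labelled shSirt1 EPZ4777 A5 (-2.76, 0.0709), and with a pseudocount of 16 (-2.84, 0.0621) or only the 4 arrays compared (0.142). The difference of the effects, labelled shSirt1 minus shLUC, was -1.26 ± 0.47 and did not pass (adjusted p = 0.699).

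Klf4 encodes a Krüppel-like factor needed for inflammatory monocytes. It measured 9.28 and 9.55 in shLUC DMSO (A4, D11) and 9.05 and 8.83 in shLUC EPZ4777. In labelled shSirt1 it measured 7.22 and 7.84 in DMSO (A1, A5) and 7.44 and 6.51 in EPZ4777. All 4 arrays labelled shSirt1 lay below all 4 shLUC arrays, and within the labelled shSirt1 arm the drug groups overlapped. The drug difference was -0.47 ± 0.33 in shLUC (adjusted p = 0.481) and -0.55 ± 0.33 in labelled shSirt1 (0.449), with codes A1 and A5 of opposite sign (0.23 and -1.33). Its other probe set gave -0.51 and -0.28.

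Egr1 encodes a zinc-finger factor induced within minutes of growth factor signalling and linked to macrophage differentiation. It measured 9.99 and 10.63 in shLUC DMSO (A4, D11), 10.57 and 9.91 in shLUC EPZ4777, 8.70 and 9.01 in labelled shSirt1 DMSO (A1, A5) and 10.65 and 8.64 in labelled shSirt1 EPZ4777. The drug groups overlapped in both arms, and the 2 labelled shSirt1 EPZ4777 arrays stood at the highest and the lowest value of the 8. The drug difference was -0.073 ± 0.60 in shLUC (adjusted p = 0.973) and 0.79 ± 0.60 in labelled shSirt1 (0.555). By code it was 0.58 in A4, -0.72 in D11, 1.94 in A1 and -0.36 in A5. Its sign in shLUC turned without shLUC DMSO D11 (0.25) or shLUC EPZ4777 D11 (0.26), and in labelled shSirt1 without labelled shSirt1 EPZ4777 A1 (-0.21).

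The 24 immediate-early and EGR-related genes report recent growth factor signalling. In shLUC cells 2 of them rose, 1 fell and 21 did not pass, with a median of 0.18. Of all genes, 1.62% were called higher and 2.36% lower in shLUC, and 0.214% and 0.181% in labelled shSirt1. The counts of this list are a description and not a test. Nab2, a co-repressor that binds EGR proteins, rose by 0.94 ± 0.14, and Btg2, an antiproliferative immediate-early gene, by 0.72 ± 0.14. Dusp2, a MAP kinase phosphatase, fell by 1.04 (SE 0.15). In labelled shSirt1 cells 1 rose, Btg2 (1.08 ± 0.14, adjusted p = 0.0421), and 23 did not pass, with a median of 0.36. With the code as a block the counts were 6 higher and 2 lower in shLUC and 3 higher in labelled shSirt1. None of the list passed in shLUC without either shLUC DMSO array or without shLUC EPZ4777 D11.

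Maf encodes a basic leucine zipper factor of mature macrophages that activates C1q and Il10. Its log2 intensity was 6.58 and 8.04 in shLUC DMSO (A4, D11) and 9.57 and 10.98 in shLUC EPZ4777. In labelled shSirt1 it was 5.17 and 6.09 in DMSO (A1, A5) and 6.21 and 5.88 in EPZ4777. The shLUC EPZ4777 arrays were the highest of the 8 and did not overlap with any other group. The labelled shSirt1 groups overlapped with each other and lay below every shLUC array.

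Maf rose by 2.97 ± 0.61 log2 units with EPZ4777 in shLUC cells (7.83-fold, limma adjusted p = 0.0477), with nearly equal differences in A4 (3.00) and D11 (2.94). In labelled shSirt1 cells the difference was 0.42 ± 0.61 (adjusted p = 0.772), at 1.04 in A1 and -0.21 in A5. The difference of the effects was -2.55 ± 0.86 and did not pass (adjusted p = 0.654). It was called in shLUC close to the threshold. The call was lost without any array but shLUC EPZ4777 A4: shLUC DMSO A4 (2.24, adjusted p = 0.256), shLUC DMSO D11 (3.70, 0.197), shLUC EPZ4777 D11 (2.27, 0.212), either labelled shSirt1 DMSO array (2.97, 0.0583) or either labelled shSirt1 EPZ4777 array (2.97, 0.0630). It was also lost for the mean of the 6 probe sets (1.47, 0.0547), with a robust variance (0.0702) and with only the 4 arrays compared (0.0655).

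All 6 Maf probe sets had a positive difference in shLUC cells, from 0.14 to 2.97, and 2 passed, 1456060_at (the main one, 2.97) and 1435828_at (1.33 ± 0.26, adjusted p = 0.0408 over all probe sets). The latter was dim, at 2.69 and 3.23 in shLUC DMSO (A4, D11) and 3.94 and 4.63 in shLUC EPZ4777, where the lower quartile of all probe sets lay between 3.75 and 3.84 on the arrays. Its DMSO values were not shown to be above background, so the size of its difference is not a measured fold. In labelled shSirt1 cells 5 of 6 were positive, from -0.075 to 0.42, and 0 passed.

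**Figure D3:**
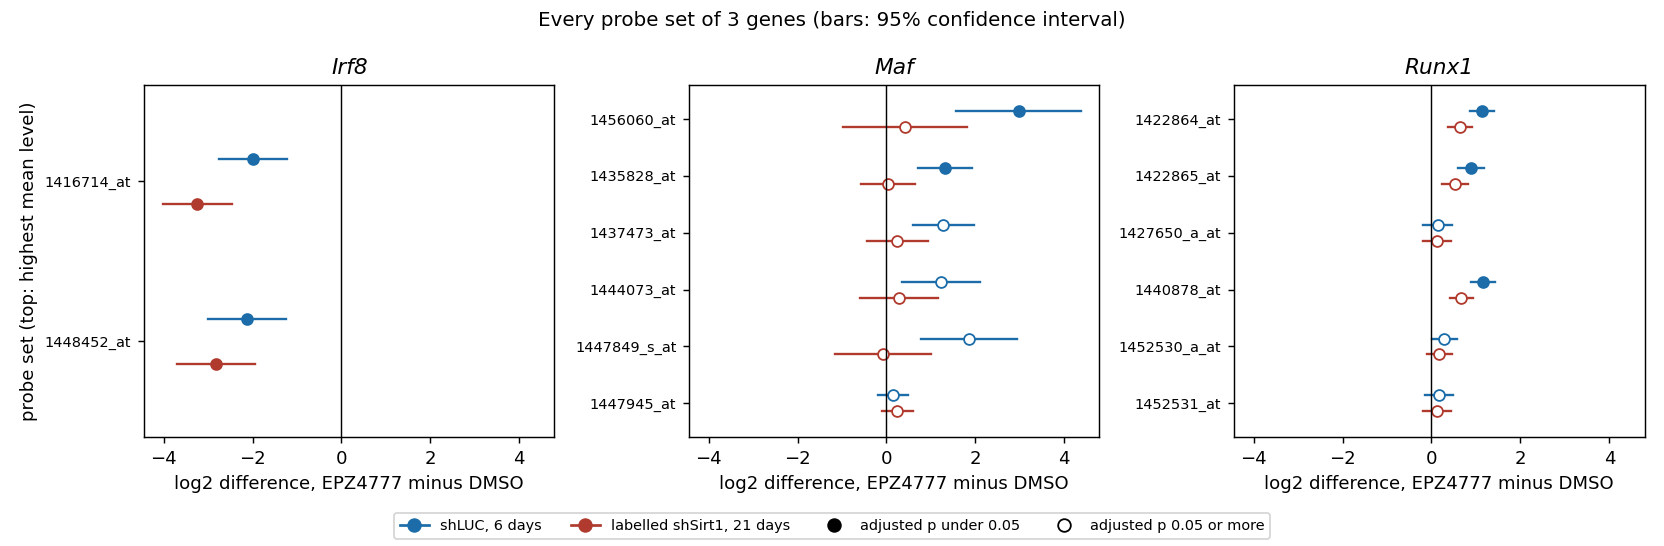
Log2 difference, EPZ4777 minus DMSO (x axis), for every probe set (y axis) of Irf8, Maf and Runx1 in shLUC (blue) and labelled shSirt1 cells (red), with 95% confidence intervals and filled points for an adjusted p under 0.05. Both Irf8 probe sets are filled in both arms, 2 of 6 for Maf and 3 of 6 for Runx1 are filled in shLUC and 0 of each in labelled shSirt1, and the 3 lower Runx1 probe sets sit between 0.14 and 0.29.

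Gfi1 encodes a zinc-finger repressor that is needed for neutrophils and silences monocyte genes. It measured 10.98 and 11.07 in shLUC DMSO (A4, D11) and 12.18 and 12.12 in shLUC EPZ4777. In labelled shSirt1 it measured 10.90 and 11.14 in DMSO (A1, A5) and 10.88 and 10.82 in EPZ4777. The shLUC EPZ4777 arrays stood alone above the other arrays, which lay between 10.82 and 11.14. The labelled shSirt1 drug groups did not overlap, with EPZ4777 lower by a narrow margin.

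Gfi1 rose by 1.13 ± 0.12 with EPZ4777 in shLUC cells (2.19-fold, limma adjusted p = 0.0244), at 1.20 in A4 and 1.06 in D11. In labelled shSirt1 cells the difference was -0.16 ± 0.12 (adjusted p = 0.529), at -0.014 in A1 and -0.32 in A5. The signs were thus opposite in every code of the 2 arms, but the difference of the effects, -1.29 ± 0.17, did not pass over all genes (adjusted p = 0.319). The call in shLUC was lost without shLUC DMSO A4 (1.08, 0.215), shLUC DMSO D11 (1.18, 0.194) or shLUC EPZ4777 D11 (1.16, 0.110). Gfi1 was measured by 1 probe set.

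Cebpa encodes C/EBPα, which is required for the step from common myeloid to granulocyte-monocyte progenitors. It measured 8.49 and 8.53 in shLUC DMSO (A4, D11), 9.52 and 9.26 in shLUC EPZ4777, 9.23 and 8.81 in labelled shSirt1 DMSO (A1, A5) and 9.0 and 8.39 in labelled shSirt1 EPZ4777. The shLUC drug groups did not overlap, with EPZ4777 higher, and the labelled shSirt1 groups overlapped. The difference was 0.88 ± 0.23 in shLUC, which missed the threshold (adjusted p = 0.0801) and passed with the code as a block (0.0313). In labelled shSirt1 it was -0.32 ± 0.23 (adjusted p = 0.528), at -0.23 in A1 and -0.42 in A5 against 1.03 in A4 and 0.72 in D11. The difference of the effects was -1.20 ± 0.33 and did not pass (adjusted p = 0.622).

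Cebpb encodes C/EBPβ, the form used in emergency granulopoiesis and in macrophages. It measured 12.71 and 12.86 in shLUC DMSO (A4, D11), 13.15 and 13.32 in shLUC EPZ4777, 12.86 and 12.70 in labelled shSirt1 DMSO (A1, A5) and 13.08 and 13 in labelled shSirt1 EPZ4777. The EPZ4777 arrays lay above the DMSO arrays in both arms without overlap, though by little. The difference was 0.45 ± 0.12 in shLUC (adjusted p = 0.0849) and 0.26 ± 0.12 in labelled shSirt1 (0.358), and the other probe set gave 0.38 and 0.31.

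Cebpd encodes C/EBPδ, which rises during granulocyte differentiation and inflammation. It measured 10.13 and 10.53 in shLUC DMSO (A4, D11), 11.30 and 11.77 in shLUC EPZ4777, 9.84 and 9.83 in labelled shSirt1 DMSO (A1, A5) and 10.64 and 11.07 in labelled shSirt1 EPZ4777. The EPZ4777 arrays lay above the DMSO arrays of the same arm, with no overlap. Cebpd rose by 1.21 ± 0.22 in shLUC (2.31-fold, limma adjusted p = 0.0402). In labelled shSirt1 the difference was 1.02 ± 0.22 (adjusted p = 0.121), which passed with the code as a block (0.0385). The differences by code were close to each other: 1.17 in A4, 1.25 in D11, 0.80 in A1 and 1.24 in A5.

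The Cebpd call in shLUC was lost without shLUC DMSO A4 (1.01, 0.240), shLUC DMSO D11 (1.41, 0.203), shLUC EPZ4777 D11 (0.97, 0.182) or either labelled shSirt1 DMSO array (1.21, 0.0575), and with only the 4 arrays compared (0.0546). Its other probe set, 1456605_at, gave 0.35 and 0.47 and passed in neither arm, so the size of the Cebpd difference depended on the probe set.

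Spi1 encodes PU.1, the ETS factor at the head of the myeloid program. It measured 9.16 and 9.39 in shLUC DMSO (A4, D11), 9.34 and 9.87 in shLUC EPZ4777, 8.36 and 9.12 in labelled shSirt1 DMSO (A1, A5) and 8.98 and 9.81 in labelled shSirt1 EPZ4777. The drug groups overlapped in both arms, with D11 above A4 and A5 above A1 in each. Within each code the EPZ4777 array was higher, by 0.18 in A4, 0.48 in D11, 0.62 in A1 and 0.69 in A5. The difference was 0.33 ± 0.35 in shLUC (adjusted p = 0.673) and 0.66 ± 0.35 in labelled shSirt1 (0.411), and neither passed the test.

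Runx1 encodes the core-binding factor that founds definitive hematopoiesis and works with PU.1 and C/EBPα on myeloid genes. It measured 8.71 and 8.59 in shLUC DMSO (A4, D11) and 9.75 and 9.84 in shLUC EPZ4777. In labelled shSirt1 it measured 8.57 and 8.67 in DMSO (A1, A5) and 9.19 and 9.33 in EPZ4777. The 4 DMSO arrays overlapped, the labelled shSirt1 EPZ4777 arrays lay above them, and the shLUC EPZ4777 arrays lay highest. The spread within groups was small, with an SD between 0.068 and 0.10.

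Runx1 rose by 1.15 ± 0.11 in shLUC cells (2.21-fold, limma adjusted p = 0.0244). In labelled shSirt1 the difference was 0.64 ± 0.11 (adjusted p = 0.0764). It did not pass with the code as a block (0.0568) and passed with the code as a random block (0.0240). By code it was 1.04 in A4, 1.25 in D11, 0.62 in A1 and 0.66 in A5, and the difference of the effects was -0.51 ± 0.16 (adjusted p = 0.638). The call in shLUC was lost without shLUC DMSO A4 (1.20, 0.206), shLUC DMSO D11 (1.09, 0.194) or shLUC EPZ4777 D11 (1.10, 0.101). The 6 probe sets fell into a higher and a lower trio by their difference in shLUC: 1422864_at (1.15), 1440878_at (1.16) and 1422865_at (0.89) passed, while 1452530_a_at (0.29), 1452531_at (0.16) and 1427650_a_at (0.14) did not. The same trios showed in labelled shSirt1, at 0.53 to 0.67 and 0.12 to 0.17, where 0 of 6 passed. Which Runx1 transcripts each probe set reads was not analysed here.

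Between hairpin labels in DMSO, 0 of 10 factors and 0% of all genes passed the limma test, while 985 genes had an unadjusted p under 0.05. The widest values were lower in labelled shSirt1: Klf4 measured -1.88 ± 0.33 (adjusted p = 0.882), Maf -1.68 ± 0.61 and Egr1 -1.46 ± 0.60. For these 3 genes the DMSO groups did not overlap. The Maf value is that of its main probe set, and its other probe sets gave -0.57 to 0.037. The other Klf4 probe set gave -1.57. Irf8 (-0.56), Spi1 (-0.53) and Cebpd (-0.49) were also lower without overlap, and Cebpa was higher (0.51). Cebpb (0.0024), Gfi1 (-0.0025) and Runx1 (-0.028) overlapped. The share of all genes without overlap was not counted, so lack of overlap describes these arrays and is not a test.

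Between labels in EPZ4777, where the arms also differed in days in drug, 1 of 10 factors was lower (0.242% of all genes) and 2427 genes had an unadjusted limma p under 0.05. This was Gfi1, lower by 2.46-fold in labelled shSirt1 (-1.30 ± 0.12, adjusted p = 0.0193). The call was lost without either shLUC DMSO array (0.0851), shLUC EPZ4777 A4 (-1.27, 0.0884), shLUC EPZ4777 D11 (-1.32, 0.122) or labelled shSirt1 EPZ4777 A5 (-1.27, 0.105), and with only the 4 arrays compared (0.0736). Maf had the widest difference, -4.23 ± 0.61, and missed the threshold (adjusted p = 0.0543). The Maf difference passed after quantile normalization (0.0449), with a trended variance (0.0474) and with the code as a random block (0.0421). It did not pass with a robust variance (0.0873) or with only the 4 arrays compared (0.0874). For the mean of the Maf probe sets it was -1.73 (0.0935). The Maf probe sets other than the main one gave -2.49 to -0.017, and none passed. Klf4 (-1.96 ± 0.33, 0.0772) and Irf8 (-1.82 ± 0.33, 0.0918) did not overlap between the labels either. Without labelled shSirt1 EPZ4777 A1 their differences were -2.43 (Klf4) and -2.31 (Irf8). Without labelled shSirt1 EPZ4777 A5 they were -1.50 and -1.34. The other probe set gave -1.34 for Klf4 and -1.23 for Irf8, and neither passed. Cebpa, Cebpb, Cebpd and Runx1 were lower without overlap (-0.69, -0.19, -0.68 and -0.53), and Spi1 and Egr1 overlapped. Here too the share of all genes without overlap was not counted.

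For the difference of the EPZ4777 effects, labelled shSirt1 minus shLUC, 0 of 10 factors and 0% of all genes passed the limma test, and 1221 genes had an unadjusted p under 0.05. With the code as a block 3 genes passed, none of them a member. The comparisons of drug and of label share arrays, so their values for a factor are not independent of each other.

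Genes that mark the cells these factors specify were followed as lists, which were also chosen with earlier results of these data known. Of all genes, 1.62% were called higher and 2.36% lower in shLUC, and 0.214% and 0.181% in labelled shSirt1. With the code as a block the shares were 3.63% and 3.61% in shLUC, and 1.31% and 0.907% in labelled shSirt1. A count of 1 lower gene of a list in shLUC lies near these shares. All list counts are a description and not a test. Of 21 measured neutrophil genes 4 rose, 0 fell and 17 did not pass in shLUC cells, with a median of 1.54. Cd177, a neutrophil surface antigen, rose by 3.95 ± 0.72, Lcn2, the granule protein lipocalin, by 3.07 ± 0.62, Olfm4, a granule glycoprotein, by 2.88 ± 0.49 and Fcnb, a ficolin, by 2.31 ± 0.45. After 21 days in labelled shSirt1 cells 1 rose, Olfm4 (3.61 ± 0.49, limma adjusted p = 0.0450), and 20 did not pass, with a median of 2.31. With the code as a block 8 were higher in shLUC and 9 in labelled shSirt1. Across alternative processing settings, the number of all genes passing in labelled shSirt1 went down to 0. The calls of Olfm4, Btg2 and, below, Ccr2 and Tifab were thus lost there. The summed intensity of the list was 75275 to 80773 in shLUC DMSO and 128211 to 168157 in shLUC EPZ4777, and 58354 to 76101 and 125892 to 172969 in labelled shSirt1. The sum was thus higher on the EPZ4777 arrays in both arms. Gfi1 differed by 1.13 in shLUC and by -0.16 in labelled shSirt1, and a link between Gfi1 and the sum was not tested.

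Of 24 measured monocyte and dendritic genes, 0 rose, 1 fell and 23 did not pass in shLUC cells, with a median of 0.20, and 0 rose, 2 fell and 22 did not pass in labelled shSirt1, with a median of -0.15. Ly86, which encodes the MD-1 partner of a Toll-like receptor family member, fell by 2.15 in shLUC (SE 0.39). Ccr2, the receptor that brings monocytes out of marrow, fell by 2.95 in labelled shSirt1 (SE 0.28) and Tifab by 2.29 (SE 0.25). Ccr2 measured 11.27 and 11.21 in shLUC DMSO, 10.11 and 9.69 in shLUC EPZ4777, 9.85 and 10.45 in labelled shSirt1 DMSO and 7.54 and 6.87 in labelled shSirt1 EPZ4777. With the code as a block 2 were higher and 1 lower in shLUC, and 1 higher and 4 lower in labelled shSirt1. The summed intensity of the list was 35525 to 39787 in shLUC DMSO and 47940 to 53985 in shLUC EPZ4777, and 20436 to 29953 and 23138 to 32163 in labelled shSirt1. It was higher with drug in shLUC and overlapped between the labelled shSirt1 groups. Irf8 itself was lower with drug in both arms, and a link between Irf8 and the sum was not tested.

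Of 24 macrophage genes, among them the C1q genes that MAF activates, 8 rose, 0 fell and 16 did not pass in shLUC cells, with a median of 0.30. Mrc1, the mannose receptor, rose by 4.19 ± 0.80, Mmp12, macrophage elastase, by 3.63 ± 0.49, C1qb, a chain of complement C1q, by 3.33 ± 0.28 and the chemokine Pf4 by 2.71 ± 0.19. C1qb measured 3.87 and 4.45 in shLUC DMSO, 7.09 and 7.89 in shLUC EPZ4777 and between 3.60 and 3.87 on the 4 arrays labelled shSirt1. Mmp12 measured 4.0 and 4.48 in shLUC DMSO and 7.02 and 8.71 in shLUC EPZ4777. The DMSO values of both genes lay near the lower quartile of the arrays (3.75 to 3.84) and were not shown to be above background. The sizes of these 2 differences are therefore not exact folds. Mrc1 measured 4.48 (A4) and 5.55 (D11) in shLUC DMSO, also not shown to be above background, so its difference is not an exact fold either. Of the same list, 0 of 24 passed in labelled shSirt1 cells, with a median of -0.053 (2 higher with the code as a block). Between labels in EPZ4777, 4 of 24 were lower, against 0.242% of all genes. The sum was 1560 to 1773 in shLUC DMSO, 4213 to 7165 in shLUC EPZ4777, 1381 to 2162 in labelled shSirt1 DMSO and 2718 to 4045 in labelled shSirt1 EPZ4777.

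Among 47 other blood transcription factors 3 rose, 1 fell and 43 did not pass in shLUC cells, with a median of 0.14. Ets1 rose by 1.94 ± 0.30, Id1, an inhibitor of basic helix-loop-helix factors, by 0.64 ± 0.11 and Fli1, an ETS factor of megakaryocytes, by 0.61 ± 0.10. Mef2c, a MADS-box factor of lymphoid and monocyte progenitors, fell by 1.28 (SE 0.23). In labelled shSirt1 cells 0 of 47 passed, with a median of 0.12 (2 higher with the code as a block). Across the neutrophil, monocyte, macrophage and transcription factor lists, 0 genes passed in shLUC without either shLUC DMSO array or without shLUC EPZ4777 D11.

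**Figure D4:**
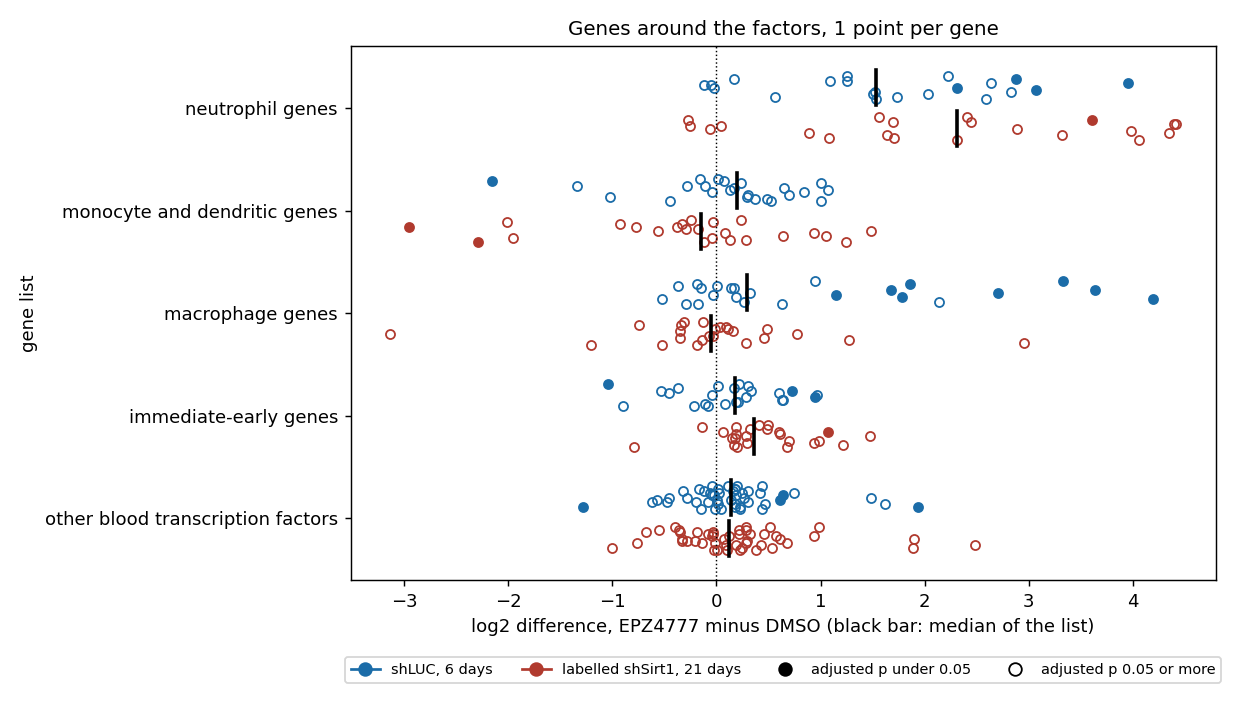
Log2 difference, EPZ4777 minus DMSO (x axis), with 1 point per gene for 5 lists (y axis) in shLUC (blue) and labelled shSirt1 cells (red); filled points had an adjusted p under 0.05 and black bars are list medians. Neutrophil genes sit mostly right of 0 in both arms (medians 1.54 and 2.31), and 8 of 24 macrophage genes are filled in shLUC and 0 in labelled shSirt1.

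For each factor that passed with EPZ4777, the 5 genes with the most similar profile over the 8 arrays were found by the root mean square difference of log2 values centred on each gene's mean. For Irf8 these were Tox (0.47), Ccr2 (0.51), Lat2 (0.52), Mndal (0.53) and Il6st (0.53), of which Ccr2 also stands on the monocyte list. For Maf these were the chemokine genes Ccl2 (0.45) and Ccl7 (0.58) with Gpnmb (0.53), Klk1b11 (0.54) and Mmp12 (0.59). Gfi1 was nearest to Gdpd1 (0.13), Kctd12b (0.15), Creb5 (0.16), Dubr (0.17) and Rnf145 (0.17). Cebpd was nearest to Rp2 (0.12), Vsir (0.12), Reps2 (0.13), Sgk1 (0.15) and Fnbp1l (0.15). Runx1 was nearest to Marveld1 (0.085), Cldn15 (0.11), Scnn1a (0.12), Gcnt1 (0.12) and Alas1 (0.12), with 1 gene that has only a clone-type symbol left unnamed before Cldn15. The distances were wider for Irf8 and Maf, whose levels spanned 4.42 and 5.81 log2 units, than for Runx1, which spanned 1.27.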

How the data were processed

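Per the submitters' processing notes, the intensity values that the authors deposited come from RMA; their linear scale was read from the values. RMA's version and its chip definition were not given in the sources used here, nor was joint processing of all arrays. RMA shrinks low signals, so differences of dim genes are understated. Deposited intensities were converted to log2 without a pseudocount. Of 45101 probe sets, 64 controls were left out, 34945 had 1 gene symbol in GEO's platform annotation, 932 had several and 9160 were not listed there. Each gene was its 1-symbol probe set with the highest mean, and no dim genes were removed.

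Genes were tested with limma 3.58.1 (R 4.3.3, data.table version 1.17.8) by lmFit and eBayes on 4 group means over 8 arrays, with 4 residual degrees of freedom, 5 contrasts, two-sided p-values and Benjamini-Hochberg adjustment over 18193 genes at 0.05. Differences are log2 ± standard error, and n is 2 arrays per group. The code was also fitted as a fixed term, called the code as a block and leaving 2 residual degrees of freedom, and in another fit as a random block. The codes come from the titles. Deviations from group means correlated across genes at 0.293 within shLUC codes and 0.378 within labelled shSirt1 codes. Between unrelated codes the correlation, taken without its sign, was 0.040 (DMSO) and 0.401 (EPZ4777), so the pairing rests on the titles.

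Named are all 10 factors, up to 4 passing genes of each list with the largest difference per drug comparison, the 5 genes most like each passing factor, and Sirt1. Clone-type symbols (ending in Rik, or beginning with LOC, an accession, or Gm plus digits) were only counted. Ccr2, C1qb, Mmp12 and, in shLUC DMSO, Mrc1 are given per array as examples chosen after their values were seen. The genes of the identity check were likewise a free choice. The factors and the 9 lists were chosen with earlier results of these data known. Lists are described by counts and medians without a set test. The model fits were checked on simulated data. Figures were drawn with matplotlib 3.10.9 under Python 3.11.15.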

Additional observations from a re-analysis of the deposited data

Results flagged for a closer look

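For 2 factors the difference between EPZ4777 and DMSO had one sign in both shLUC codes and the other sign in both codes labelled shSirt1. The share of all genes with this pattern was not counted, so the pattern is a description. For Gfi1 the difference in code A1 was only -0.014. For Gfi1 the difference of the effects, labelled shSirt1 minus shLUC, was -1.29 log2 units, and the limma test of this difference over all genes did not pass (adjusted p = 0.319, or 0.240 with the code as a block). For Cebpa it was -1.20, which did not pass either (adjusted p = 0.622, or 0.246 with the code as a block). The arms differ in hairpin label and in days in drug, which cannot be told apart, and the A5 arrays showed no lower Sirt1.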

How the results depend on the processing

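Across the alternatives, each of the factor calls kept its sign. The number of factors passing in shLUC stayed within 4 to 7 under every setting other than leaving an array out, and was 0 to 5 with an array left out. In labelled shSirt1, 1 factor passed, against 0 with a pseudocount of 16 or with only the arrays compared, 2 with the code as a fixed replicate block and 3 as a random replicate block (0 to 1 with an array left out). Between labels in EPZ4777, 1 passed, against 2 after quantile normalization, with a trended variance or with the random replicate block, and 0 with only the arrays compared (0 to 3 with an array left out). The pairing by code changed no other call than those given here and in the report: the fixed replicate block added Cebpa in shLUC (0.0313) and Cebpd in labelled shSirt1 (0.0385), and the random replicate block also added Cebpb in shLUC (0.0289), Runx1 in labelled shSirt1 (0.0240) and Maf between labels in EPZ4777 (0.0421). Cebpb in shLUC also passed with a trended variance (0.0447), and Cebpa with only the arrays compared (0.0467). The number of genes passing ranged from 402 to 2379 in shLUC, 0 to 504 in labelled shSirt1, 0 to 3 for the difference of effects, 0 to 0 between labels in DMSO and 14 to 76 between labels in EPZ4777. With an array left out these ranges were 0 to 1031, 0 to 205, 0 to 89, 0 to 155 and 0 to 73.

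Some values that did not pass changed sign. With the mean of the probe sets, the difference of effects of Klf4 was 0.075, and Cebpb between labels in DMSO was -0.022. Gfi1 between labels in DMSO was 0.0072 after quantile normalization and 0.0091 after median centring. Taken alone, other probe sets gave -0.046 for Cebpb, 0.037 for Maf and 0.10 and 0.0043 for Runx1 between labels in DMSO, 0.12 for Cebpd, 0.23 for Klf4 and 0.10 for Maf for the difference of effects, -0.075 for Maf with drug in labelled shSirt1, and 0.10 for Cebpd between labels in EPZ4777. With an array left out, Egr1 ranged from -0.40 to 0.26 in shLUC, -0.21 to 1.79 in labelled shSirt1, -0.14 to 1.87 for the difference of effects and -1.60 to 0.41 between labels in EPZ4777. The difference of effects ranged from -0.42 to 0.047 for Cebpd, -0.54 to 0.39 for Klf4 and -0.094 to 0.74 for Spi1. Maf in labelled shSirt1 ranged from -0.043 to 0.87, and Spi1 between labels in EPZ4777 from -0.63 to 0.21. Between labels in DMSO, Cebpb ranged from -0.078 to 0.083, Runx1 from -0.084 to 0.028 and Gfi1 from -0.12 to 0.12. The cause of these changes was not tested. The 2 arrays per group limit the precision, and signal over background was not given.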
